A study of Mus musculus with 18 samples.

Results

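The genes described here are 10 mouse genes for secreted factors that act on blood vessels, on red cell production or on lipid supply: Vegfa, Vegfb, Vegfc, Pgf, Adm, Epo, Angptl4, Angptl2, Pdgfa and Pdgfb. They were chosen by name, with no measured value in the rule but with earlier results of these data known. Every array probe whose transcript accession belongs to one of these RefSeq symbols was taken. That gave 13 probes among 39429 on the array, and 10 genes among 19747 with a symbol. Vegfa, Pdgfa and Pdgfb each had 2 probes, and the brightest tested probe stood for each gene.

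The samples were macrophages grown from femoral bone marrow of male C57BL/6J mice aged 8 weeks, kept for 7 days in M-CSF, which turns marrow cells into macrophages. The mice were wild type or PHD3-/-, a knockout of the oxygen-dependent prolyl hydroxylase encoded by Egln3. For each genotype there were 3 groups of 3 samples: control cells at oxygen 20, cells at oxygen 1 with control feeding, and starved cells at oxygen 20, where the labels give oxygen with no unit. Starved cells at oxygen 1 are not among the groups, and the sources used here do not give the construction of the knockout. They state that the animals were not treated, but not how the starved cells were starved.

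When oxygen is short, cells stop hydroxylating hypoxia-inducible factor (HIF) on its alpha subunit, which then accumulates, pairs with its beta subunit and switches on genes through the short motif RCGTG. PHD3 is 1 of the prolyl hydroxylases that mark HIF for breakdown and is itself a HIF target. Among the secreted products of HIF target genes, VEGF-A makes endothelial cells grow toward the source, adrenomedullin widens vessels and erythropoietin drives red cell formation, in adults mainly from the kidney. Macrophages in poorly supplied tissue are a known source of VEGF-A.

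Values below are log2 signals minus that array's 75th percentile, so 0 is the level of a bright transcript, and a difference of 1 is a doubling. A probe is called well above background where the scanner software sets that flag. Changes are differences of group means with the standard error (SE) of limma's fit over all 18 samples. Adjusted p-values are limma's moderated, two-sided test after Benjamini-Hochberg adjustment over 20568 genes, and a gene is said to have risen or fallen where that p was under 0.05. Levels of different genes are not set against each other, because probes differ in brightness.

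The 20 arrays lay on 5 slides. Between 56.1% and 65.4% of spots were well above background on each array, no spot was saturated, and each sample correlated with the others of its group at a mean r of 0.989 to 0.994 across genes. The 8 macrophage markers on the array were well above background in every group. Markers of other cell types were read too: in each group 4 to 5 of 8 endothelial, 6 to 7 of 8 stromal, 2 to 3 of 5 platelet and 5 to 7 of 7 neutrophil markers were well above background in all 3 samples. Tie1, Cldn5, Pdgfra, Itga2b and Gp1ba were below background in every sample. Egln3, the targeted gene, read -3.44 ± 0.33 in wild-type and -3.94 ± 0.22 in knockout controls (SD, n = 3 each) and 2.91 ± 0.09 and 2.87 ± 0.11 at low oxygen. The place of its probes relative to the deleted part is not known here, so these levels check nothing about the genotype labels.

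Of the 10 genes, 8 were well above background in all 18 samples. Epo was so in 4 samples and Angptl2 in 6, which means that these genes entered the tests only through the groups in which they were high. In low oxygen, 6 of the 10 rose and 1 fell in wild-type cells, where 20.6% and 18.5% of all genes tested rose and fell, and 6 rose and 1 fell in knockout cells, where 22.4% and 17.8% did. In starvation, 5 rose in wild-type cells against 6.43% of all genes, 6 rose in knockout cells against 7.39%, and none fell, where 6.22% and 6.2% of all genes did. The median change of the 10 genes was 0.99 in wild-type and 0.58 in knockout cells at low oxygen, and 0.50 and 0.46 in starvation. The median over all genes tested was 0.03 and 0.05, and 0.01 and 0.02. Because the 10 genes were chosen with earlier results known, these counts and medians describe them and are no test of the set.

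**Figure D1:**
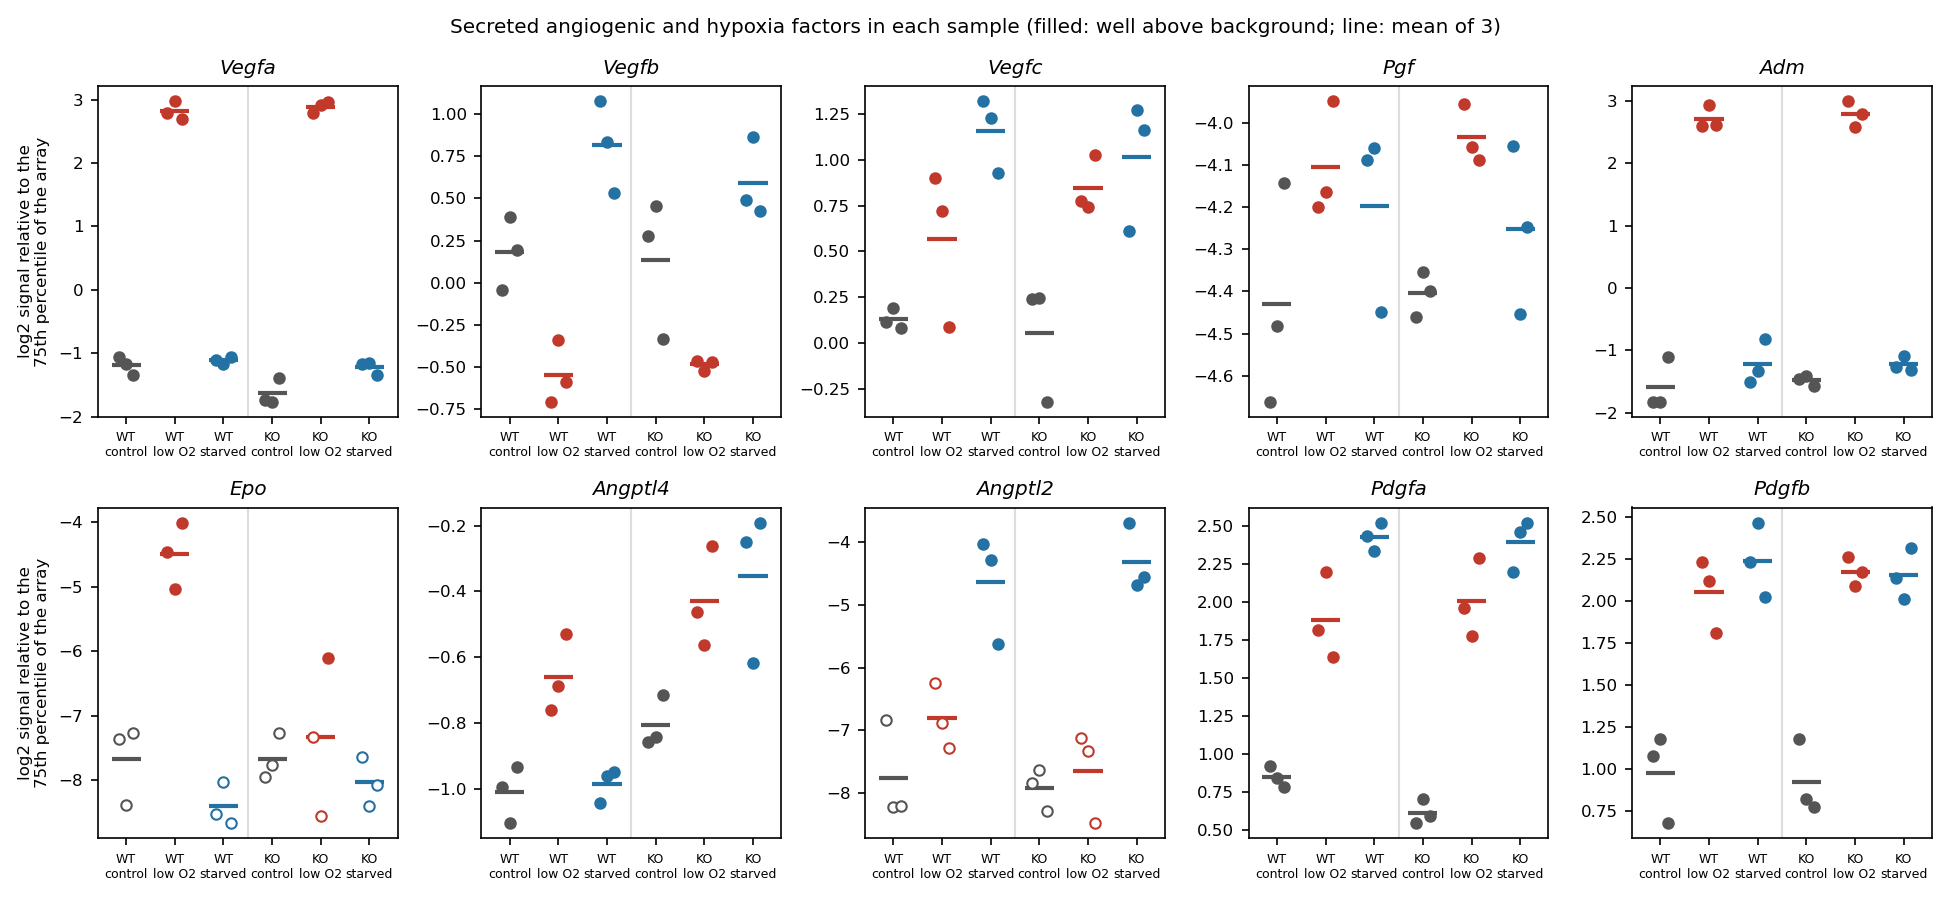
Log2 signal of each secreted factor, minus the array's 75th percentile, in each of the 18 samples (points) with the mean of each group of 3 (line), for wild-type (WT) and PHD3 knockout (KO) cells. Open points are samples in which the probe was not well above background. Vegfa and Adm stand high in the low-oxygen groups alone, Angptl2 is filled only in the starved groups, and Epo is filled in the 3 wild-type low-oxygen samples and in 1 knockout low-oxygen sample.

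Vegfa encodes the main growth factor of endothelial cells. In wild-type controls it read -1.06, -1.17 and -1.34, and at low oxygen 2.78, 2.98 and 2.70. In knockout controls it read -1.74, -1.76 and -1.39, and at low oxygen 2.78, 2.91 and 2.95. All 6 low-oxygen samples thus lay far above all 12 other samples. The rise was 4.01 ± 0.12 (SE; 16.1-fold; adjusted p = 4.66e-12) in wild-type cells and 4.51 ± 0.12 (22.8-fold; adjusted p = 9.4e-13) in knockout cells. The second, dimmer probe rose by 3.67 and 3.89. On single slides holding both groups, the difference was 4.04 on 1 slide in wild type and 4.48 to 4.67 on 3 slides in knockout. The 3 knockout differences share samples, because low-oxygen replicate 1 and control replicate 1 each lay on more than 1 of these slides.

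Adm encodes adrenomedullin, a peptide that widens vessels and tightens the endothelial barrier. It read -1.82, -1.82 and -1.11 in wild-type controls and 2.59, 2.93 and 2.62 at low oxygen. In knockout cells it read -1.46, -1.41 and -1.57 in controls and 3.00, 2.58 and 2.79 at low oxygen. The rise was 4.30 ± 0.20 (19.7-fold; adjusted p = 7.88e-10) and 4.27 ± 0.20 (19.3-fold; adjusted p = 7.98e-10), so Adm and Vegfa had the largest changes, in both genotypes, of the 8 genes well above background in all 18 samples.

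Epo encodes erythropoietin. Its probe was dim: the processed signal of its spot was 50.7, 35.8 and 57.6 in the 3 wild-type low-oxygen samples and 2.85 to 17.1 on every other array. On the log2 scale it read -4.46, -5.03 and -4.00 at low oxygen and -7.36, -8.37 and -7.27 in wild-type controls, none of which was well above background. The groups did not overlap, the fitted difference was 3.17 ± 0.48 (adjusted p = 0.000113), and the rise was at least 3.84-fold. This bound sets the low-oxygen mean against each control array's lowest signal well above background. The median pixel signal of the spot, a second reading of the same arrays, was 51, 69 and 79 at low oxygen, over a local background of 21 to 25. It was 27 to 53 on the other arrays, so on that reading wild-type low-oxygen replicate 1 lay within the range of the others. With background correction by normexp on those median signals, the Epo difference in low oxygen fell to 0.60 (adjusted p = 0.411).

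In knockout cells at low oxygen, Epo read -7.32, -8.56 and -6.10, and only replicate 3 was well above background. The first of these is the mean of 2 arrays that differed by 1.07. The knockout groups overlapped, and the difference of 0.34 ± 0.48 did not pass (adjusted p = 0.622). Within single slides, the knockout difference was 2.23, 0.979 and -0.283 on 3 slides, which share samples as for Vegfa, and the wild-type difference was 2.33 on 1 slide.

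The upstream sequences of Adm, Epo and Vegfa are shown here because these 3 genes rose more than the others in wild-type cells at low oxygen, although Epo did not pass in knockout cells, with matches to the HIF core motif in capitals. RefSeq start sites of build GRCm38.p6 gave windows for 8 of the 10 genes, not for Angptl4 and Pdgfb. The motif was searched as ACGTG and GCGTG on both strands, from 250 bases before to 50 after each start, and a match on the opposite strand reads CACGT or CACGC. Each line gives the 250 bases before the start, 5′ to 3′ on the strand of the gene.

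Adm (chr7:110627407-110627656, plus strand): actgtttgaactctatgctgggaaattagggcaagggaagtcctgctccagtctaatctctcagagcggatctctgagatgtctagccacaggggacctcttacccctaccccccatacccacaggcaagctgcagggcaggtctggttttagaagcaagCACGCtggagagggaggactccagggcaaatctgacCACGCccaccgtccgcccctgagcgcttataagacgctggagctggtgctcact

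Epo (chr5:137485817-137486066, minus strand): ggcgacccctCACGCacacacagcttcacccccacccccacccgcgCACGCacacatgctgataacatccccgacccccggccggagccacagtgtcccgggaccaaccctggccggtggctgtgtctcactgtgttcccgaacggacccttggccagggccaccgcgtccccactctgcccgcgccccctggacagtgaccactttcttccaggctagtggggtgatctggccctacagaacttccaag

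Vegfa (chr17:46032378-46032627, minus strand): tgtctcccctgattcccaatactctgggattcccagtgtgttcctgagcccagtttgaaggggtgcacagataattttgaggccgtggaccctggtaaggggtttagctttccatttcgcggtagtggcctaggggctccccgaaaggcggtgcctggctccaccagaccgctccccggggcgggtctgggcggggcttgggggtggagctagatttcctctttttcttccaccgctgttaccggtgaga

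Adm held 2 GCGTG matches, at -90 and -54 from the start, both on the opposite strand. Epo held 3, at -240 and -204 on the opposite strand and at 15 after the start, the last outside the printed bases. The Vegfa window printed held none, and a second annotated Vegfa start, inside the gene, held 1 of each form. Vegfb, which fell at low oxygen, held 2 GCGTG matches, Pgf and Pdgfa 1 each in 1 of 2 windows, and Vegfc and Angptl2 none. Of 32851 mouse windows of the same length, 43.8% held ACGTG or GCGTG and 20.6% held 2 or more matches. These matches are letters in a window, and none is evidence that HIF binds there.

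Pdgfa and Pdgfb encode the A and B chains of platelet-derived growth factor, which recruits fibroblasts, smooth muscle cells and pericytes. Pdgfa read 0.92, 0.84 and 0.78 in wild-type controls and 1.82, 2.20 and 1.64 at low oxygen. It read 0.55, 0.71 and 0.60 in knockout controls and 1.96, 1.78 and 2.29 at low oxygen. No low-oxygen sample overlapped the controls, and the rise was 1.03 ± 0.15 (adjusted p = 6.09e-05) and 1.39 ± 0.15 (adjusted p = 3.07e-06). Pdgfb rose by 1.07 ± 0.16 (adjusted p = 0.000103) and 1.25 ± 0.16 (adjusted p = 2.27e-05), from controls at 0.68 to 1.18 to low-oxygen samples at 1.81 to 2.26 over both genotypes. The second probe of each gene rose too, by 1.11 and 1.41 for Pdgfa and by 0.81 and 0.85 for the dimmer Pdgfb probe.

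The other VEGF family genes changed little beside Vegfa. Vegfb, whose product binds the VEGF receptor Flt1, was the only 1 of the 10 that fell in low oxygen. It read -0.04, 0.39 and 0.19 in wild-type controls and -0.71, -0.34 and -0.59 at low oxygen. The fall was -0.73 ± 0.20 (adjusted p = 0.00913) in wild type and -0.62 ± 0.20 (adjusted p = 0.0217) in knockout, where the low-oxygen samples lay between -0.52 and -0.46 and knockout control replicate 3, at -0.34, stood close to them. The knockout call was lost in 5 of 17 alternative analyses, including those without knockout control replicate 1 (-0.54, adjusted p = 0.0785), without replicate 2 (-0.45, adjusted p = 0.111) and without knockout low-oxygen replicate 2 (-0.60, adjusted p = 0.0599).

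Vegfc, the growth factor of lymphatic vessels, read 0.12, 0.19 and 0.08 in wild-type controls and 0.90, 0.72 and 0.09 at low oxygen. The third low-oxygen sample lay inside the control range, and the difference of 0.44 ± 0.22 did not pass (adjusted p = 0.129). Without that sample it was 0.68 (adjusted p = 0.0199). In knockout cells Vegfc read 0.24, 0.25 and -0.32 in controls and 0.77, 0.74 and 1.02 at low oxygen, a rise of 0.79 ± 0.22 (adjusted p = 0.00947). Without the 3 samples that earlier work on these data set apart, 1 of them knockout control replicate 3, the knockout difference was 0.60 (adjusted p = 0.0553).

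Pgf, the placental growth factor, which binds the same receptor, stayed between -4.66 and -3.95 in all 18 samples and passed in no comparison. Its low-oxygen differences were 0.33 ± 0.14 (adjusted p = 0.0871) in wild-type and 0.37 ± 0.14 (adjusted p = 0.0518) in knockout cells, the latter with no overlap of the groups. The knockout difference passed in 3 of 17 alternatives (adjusted p = 0.0361 at the lowest), and the wild-type difference passed without wild-type control replicate 3 (0.47, adjusted p = 0.022).

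Angptl4 encodes a secreted inhibitor of lipoprotein lipase that also acts on vessel walls, a target of both HIF and PPAR factors in several cell types. Its range over all 18 samples, -1.11 to -0.19, was narrow. In wild-type cells it read -0.99, -1.11 and -0.93 in controls and -0.76, -0.69 and -0.53 at low oxygen, a rise of 0.35 ± 0.12 (1.28-fold; adjusted p = 0.0269). In knockout cells it read -0.86, -0.84 and -0.72 and then -0.46, -0.56 and -0.26, a rise of 0.38 ± 0.12 (1.30-fold; adjusted p = 0.0184). The groups did not overlap in either genotype, but the size was small and the calls were lost in 7 and 5 of 17 alternatives. Leaving out wild-type control replicate 1 or 2 gave adjusted p = 0.0525 and 0.0976, and leaving out wild-type low-oxygen replicate 3 gave 0.0993. In knockout cells, leaving out control replicate 1 or 2 or low-oxygen replicate 3 gave 0.0607, 0.0572 and 0.0856.

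Angptl2 encodes a secreted angiopoietin-like protein with effects on inflammation and vessel growth. It was not well above background in any low-oxygen or control sample, and its low-oxygen differences of 0.95 ± 0.49 and 0.27 ± 0.49 did not pass (adjusted p = 0.142 and 0.697). The wild-type difference was 1.41 (adjusted p = 0.038) without wild-type control replicate 1, with both groups still below background.

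**Figure D2:**
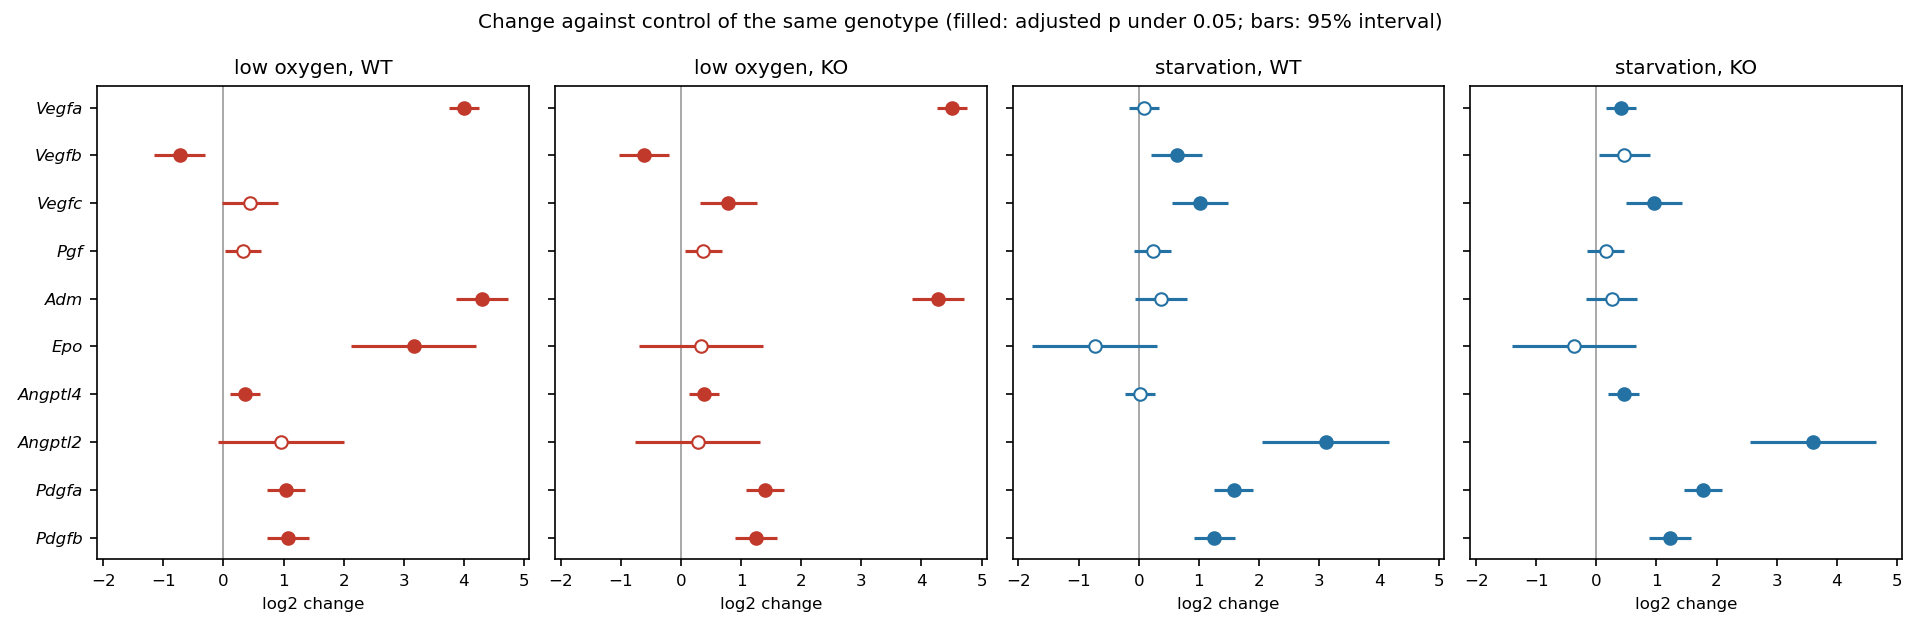
Log2 change of each secreted factor against control cells of the same genotype, in low oxygen and in starvation, with the 95% interval of limma's fit. Filled points passed at an adjusted p under 0.05. Vegfa and Adm lie above 4 in both low-oxygen panels and near 0 in both starvation panels, Vegfb is below 0 only in low oxygen, and Pdgfa and Pdgfb lie above 1 in all 4 panels.

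Vegfa and Adm stayed near their control levels in starvation. Starved wild-type cells read -1.10, -1.17 and -1.05 for Vegfa, overlapping the controls, with the last just above the highest control. The difference was 0.08 ± 0.12 (adjusted p = 0.764; 95% interval -0.17 to 0.33). The second, dimmer probe differed by 0.26 in wild type and did not pass (adjusted p = 0.263), though its groups did not overlap. Starved knockout cells read -1.17, -1.15 and -1.34, above the knockout controls, and the rise was 0.41 ± 0.12 (1.33-fold; adjusted p = 0.0284). It was lost in 9 of 17 alternatives, among them those without knockout control replicate 1 (0.36, adjusted p = 0.105) or 2 (0.35, adjusted p = 0.122) and without starved knockout replicate 1 (0.39, adjusted p = 0.0898) or 2 (0.38, adjusted p = 0.097). On the second Vegfa probe it was 0.42 (adjusted p = 0.0509). Adm differed by 0.37 ± 0.20 (adjusted p = 0.287) and 0.25 ± 0.20 (adjusted p = 0.492), and Epo was below background in all 6 starved samples.

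Angptl2 rose from below background. In starved wild-type cells it read -4.03, -4.28 and -5.62 and in starved knockout cells -3.69, -4.68 and -4.56. All 6 were well above background, whereas the controls lay between -8.28 and -6.83. The processed signal of its spot was 23.5 to 93.3 on the starved arrays and 3.29 to 14.7 on all others. The rise was at least 3.48-fold in wild type (fitted difference 3.11 ± 0.49; adjusted p = 0.000576) and at least 4.11-fold in knockout (3.60 ± 0.49; adjusted p = 0.000159). Within single slides the difference was 2.59 to 3.95 on 3 slides in wild type and 2.95 to 4.41 on 3 slides in knockout. With normexp background correction it was 0.82 in knockout cells (adjusted p = 0.249), and its lowest value in wild type under any alternative was 1.21.

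Pdgfa read 2.44, 2.33 and 2.52 in starved wild-type cells and 2.20, 2.46 and 2.52 in starved knockout cells. All lay above every control, and the rise was 1.58 ± 0.15 (2.99-fold; adjusted p = 7.23e-06) and 1.78 ± 0.15 (3.43-fold; adjusted p = 1.99e-06). Pdgfb rose by 1.26 ± 0.16 (adjusted p = 0.000115) and 1.23 ± 0.16 (adjusted p = 0.000125), from the same controls to starved samples at 2.01 to 2.47. The 2 chains were thus higher in both stresses and both genotypes, on both probes of each. The receptor gene Pdgfrb rose at low oxygen, by 0.60 in wild type (adjusted p = 0.0126) and 0.95 in knockout (adjusted p = 0.000441). In starvation it fell by -1.15 in wild type (adjusted p = 0.000385) and differed by -0.52 in knockout (adjusted p = 0.0608). Pdgfrb is also on the list of stromal markers, whose summed signal was lower in starved cells of both genotypes, as given below.

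Vegfc rose by 1.03 ± 0.22 (adjusted p = 0.00535) in starved wild-type cells, which read 1.32, 1.23 and 0.93, and by 0.96 ± 0.22 (adjusted p = 0.00806) in knockout cells, which read 0.61, 1.27 and 1.16. The knockout difference without the 3 samples set apart earlier was 0.77 (adjusted p = 0.0534). Vegfb read 1.08, 0.84 and 0.53 in starved wild-type cells, above the controls, a rise of 0.64 ± 0.20 (adjusted p = 0.048). That call was lost in 12 of 17 alternatives. They include leaving out wild-type control replicate 1, 2 or 3 (0.52, 0.74 and 0.64) or starved replicate 1 or 2 (0.51 and 0.63), with adjusted p from 0.0526 to 0.209. In knockout cells the difference of 0.46 ± 0.20 did not pass (adjusted p = 0.154).

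Angptl4 read -1.04, -0.96 and -0.95 in starved wild-type cells, among its controls, a difference of 0.03 ± 0.12 (adjusted p = 0.934). In starved knockout cells it read -0.25, -0.62 and -0.19, all above the knockout controls, and the rise was 0.45 ± 0.12 (adjusted p = 0.0176). The knockout call was lost in 6 of 17 alternatives, among them leaving out knockout control replicate 1 or 2 (adjusted p = 0.0607 and 0.0615) and starved knockout replicate 1 or 3 (0.0727 and 0.0846). The difference between these responses, 0.43 ± 0.17, had an unadjusted p of 0.0216 by limma and an adjusted p of 1.

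In starved cells, the summed signal of 8 stromal markers was 0.855 to 1.01 times the 75th-percentile signal of the array in wild type and 0.727 to 0.895 in knockout, against 2.61 to 4.25 and 2.61 to 3.56 in controls. Of the 7 stromal genes tested, 1 rose and 4 fell in starved wild-type cells (median -1.15). In starved knockout cells 1 rose, 3 fell and 3 were not called (median -0.52). The sum thus does not stand for every gene of the list. The summed signal of 5 platelet markers was 5.9 to 7.36 in controls of both genotypes, 16.1 to 33.8 at low oxygen and 10.5 to 15.5 in starvation. In every sample of a group 2 to 3 of the 5 were well above background, with Itga2b and Gp1ba below it throughout. Of the 3 tested, only Pf4 rose at low oxygen and none fell, and the median change was -0.30 in wild type and -0.31 in knockout. In starvation 1 rose and 1 fell in wild type (median -0.20), and none rose and 1 fell in knockout (median -0.71). The sum thus did not stand for a rise of the list. The summed signal of 7 neutrophil markers was 9.74 to 18.8 in controls, 5.35 to 9.74 at low oxygen and 5.73 to 9.4 in starvation. The part of such cells in the changes of Pdgfa, Pdgfb, Pdgfrb, Vegfc and Angptl2 was not tested. In these bulk samples, fewer cells of a type and less RNA per cell cannot be told apart.

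Low oxygen was also set directly against starvation. In wild-type cells, Vegfa, Adm, Epo and Angptl4 were higher in low oxygen, against 20.2% of all genes, and Vegfb, Vegfc, Angptl2 and Pdgfa were lower, against 18.4%. In knockout cells 2 of the 10, Vegfa and Adm, were higher (19.6% of all genes) and 2, Vegfb and Angptl2, lower (17.7%). Both knockout counts were near the share over all genes. Vegfb differed by -1.36 ± 0.20 (adjusted p = 7.65e-05) and -1.08 ± 0.20 (adjusted p = 0.000576), with no overlap in either genotype, and these calls held in all 17 alternatives. Angptl2 was at least 2.88-fold lower in low oxygen in wild type (adjusted p = 0.00285) and at least 4.32-fold lower in knockout (adjusted p = 8.66e-05). With normexp background correction these Angptl2 differences were -0.97 (adjusted p = 0.0544) and -0.70 (adjusted p = 0.184).

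Pdgfa was lower in low oxygen than in starvation by -0.55 ± 0.15 in wild type (adjusted p = 0.00914). That call was lost with normexp background correction, with slide as a block and in a fit of only these groups (adjusted p = 0.0824, 0.0735 and 0.0527). In knockout the difference was -0.39 ± 0.15 (adjusted p = 0.0534), which passed without knockout low-oxygen replicate 3 (-0.52, adjusted p = 0.0149) or starved replicate 1 (-0.48, adjusted p = 0.0341). Pdgfb differed by -0.19 ± 0.16 and 0.02 ± 0.16 (95% intervals -0.54 to 0.16 and -0.33 to 0.37). The wild-type Vegfc difference, -0.59 ± 0.22 (adjusted p = 0.0451), was lost in 8 of 17 alternatives, and that of Angptl4, 0.33 ± 0.12 (adjusted p = 0.0397), in 9. Without wild-type low-oxygen replicate 3 they were -0.35 (adjusted p = 0.208) and 0.26 (adjusted p = 0.135), and each other sample of these groups also ended 1 or both calls, except low-oxygen replicate 1. Epo was at least 3.81-fold higher in low oxygen than in starvation in wild type, and with normexp background correction its difference was -0.042 (adjusted p = 0.946). Epo in knockout differed by 0.71 (adjusted p = 0.277), and by 1.32 without low-oxygen replicate 2 (adjusted p = 0.0288). That replicate had the lowest reading of its group (-8.56), so a larger difference without it was fixed in advance and adds no support.

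The order of the group means, over both genotypes, showed where neighbours could not be separated. In wild-type cells, Vegfa on its brighter probe and Adm overlapped between starved and control samples, and both stood about 4 log2 units higher at low oxygen. In knockout cells neither overlapped between starved and control samples. Adm read -1.57 to -1.41 in knockout controls and -1.32 to -1.10 when starved, though its difference did not pass. Vegfb ran from low oxygen through control to starved, but its step from control to starved overlapped and did not pass in knockout cells, and the wild-type call was lost in 12 of 17 alternatives. Pdgfb ran from control to low oxygen and starved together, which overlapped in both genotypes. Pdgfa ran from control through low oxygen to starved, and its last step overlapped in knockout cells.

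Knockout and wild-type cells were then compared within each condition. None of the 10 genes passed in controls, at low oxygen or when starved, and none of the 20568 genes did (0% called). At an unadjusted p under 0.05, limma gave 281, 348 and 386 of all genes, and 1 of the 10 in each condition. These were Vegfa in controls, Epo at low oxygen and Angptl4 in starvation. Each of the 3 counts over all genes is below a share of 0.05, the share expected where no gene differs. Adm, Pgf, Vegfb, Vegfc, Pdgfa and Pdgfb differed between genotypes by less than 0.28 in every condition. Pdgfa was lower by -0.23 ± 0.15 in knockout controls, without overlap, as for 2.74% of all genes in this direction. On its second probe the groups overlapped (-0.11).

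**Figure D3:**
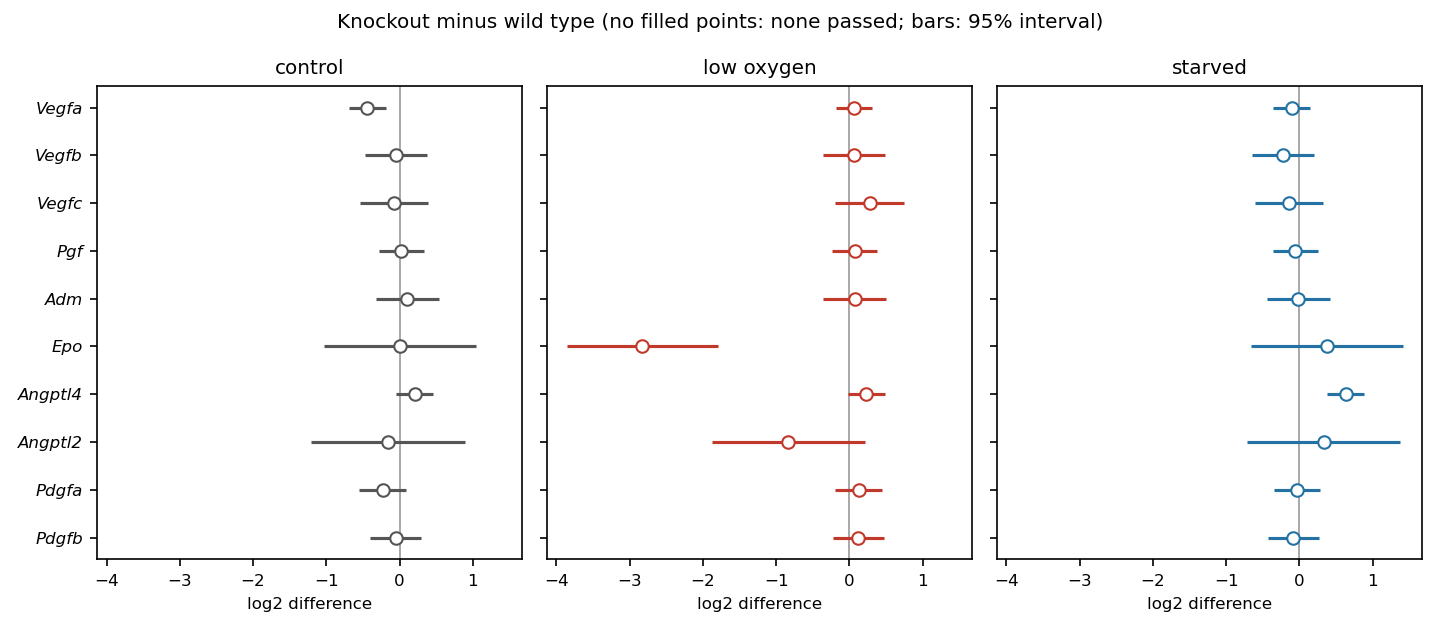
Knockout minus wild type for each secreted factor in controls, at low oxygen and in starvation, as a log2 difference with the 95% interval of limma's fit. No point is filled because none passed at an adjusted p under 0.05. The interval of Epo at low oxygen runs from -3.86 to -1.79, that of Angptl4 in starvation from 0.38 to 0.88 and that of Vegfa in controls from -0.69 to -0.19.

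At low oxygen Epo was well above background in all 3 wild-type samples and in 1 of 3 knockout samples, so the knockout mean rests mostly on readings at background. Epo entered the tests only through these low-oxygen samples. Its separation, p and slide differences below therefore describe these samples and are no independent support for a genotype difference. The fitted difference was -2.83 ± 0.48, with no overlap between -8.56 to -6.10 in knockout and -5.03 to -4.00 in wild type. Groups that did not overlap in this direction made up 1.45% of all genes. Its p was 3.78e-05 before and 0.388 after limma's adjustment over all genes. Each of 3 slides held 1 sample of both genotypes, and the differences within them were -2.09, -3.53 and -2.32. Without knockout low-oxygen replicate 3, the knockout sample with the highest Epo, the difference was -3.44 and passed (adjusted p = 0.0281). That omission leaves only knockout readings at background, so a larger difference was fixed in advance and adds no support. With normexp background correction and all samples kept, the difference was -0.45. The difference of the low-oxygen responses was -2.83 ± 0.69, with a p of 0.000948 before and 1 after limma's adjustment over all genes.

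Angptl4 in starvation was higher in knockout cells by 0.63 ± 0.12 (1.55-fold), with no overlap, as for 3.27% of all genes in this direction. Its p of 8.14e-05 was the 3rd smallest, and the adjusted p was 0.432. The 1 slide with both groups gave 0.76. The knockout reading of Angptl4 was also higher by 0.21 ± 0.12 in controls, without overlap, as for 2.19% of all genes. At low oxygen it was higher by 0.23 ± 0.12, with overlap, and neither difference passed.

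Vegfa in controls was lower in knockout cells by -0.44 ± 0.12, without overlap, as for 2.74% of all genes in this direction. Its p was 0.00205 before and 1 after limma's adjustment over all genes. The second probe gave -0.30, with an unadjusted p of 0.0448 by limma. On the 2 slides with both groups the differences were -0.05 and -0.58. At low oxygen the genotypes differed by 0.06 ± 0.12 (95% interval -0.19 to 0.31). The difference of the low-oxygen responses was 0.50 ± 0.17, with an unadjusted p of 0.00886 by limma and an adjusted p of 1, and 0.21 ± 0.19 on the second probe. For the responses to low oxygen and to starvation, limma called none of all genes different between genotypes, with 238 and 217 at an unadjusted p under 0.05 and 2 and 1 of the 10. Here too the counts over all genes are below a share of 0.05.

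The receptors of these factors and other genes of the same pathways were taken from lists of names. Their counts in wild-type cells are to be read against 20.6% of all genes higher and 18.5% lower at low oxygen, and 6.43% and 6.22% in starvation. The counts of genes that fell at low oxygen were near that share on the lists of receptors, other secreted factors and inhibitors of angiogenesis, and so were both counts at low oxygen on the lipase and PPAR list. Of 12 receptor genes tested among 17, 5 rose and 2 fell in wild-type cells at low oxygen and 2 rose and 2 fell in starvation. Epor, the erythropoietin receptor, read -3.35 ± 0.09 in wild-type controls and -4.73 ± 0.31 at low oxygen (SD, n = 3). It fell by -1.37 in wild-type and -1.68 in knockout cells at low oxygen and by -0.73 and -0.88 in starvation (largest adjusted p of the 4, 0.00237). Nrp1, a VEGF co-receptor, fell by -0.89 and -0.96 at low oxygen, and Ramp3, a partner that turns the calcitonin-receptor-like receptor into an adrenomedullin receptor, rose by 1.05 and 0.80 there and by 1.53 and 1.61 in starvation. Ramp3 was well above background in 1 of 3 control samples of each genotype. The median change of the receptor list was 0.03 in wild type at low oxygen and 0.26 in starvation.

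Of 22 other secreted factors tested among 26, 10 rose and 5 fell in wild-type cells at low oxygen, and 8 rose and 4 fell in starvation. Apln, which encodes the vessel peptide apelin, rose by 4.24 ± 0.39 at low oxygen in wild type and by 4.42 ± 0.39 in knockout, with 1 of 3 control samples of each genotype well above background. Edn1, the vasoconstrictor endothelin, rose by 2.02 and 2.26 at low oxygen, and Mif, a macrophage cytokine, by 2.03 and 1.96. The list's median was 0.30 and 0.47 at low oxygen and 0.02 and 0.11 in starvation.

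Of 11 inhibitors of angiogenesis tested among 12, 3 rose and 2 fell in wild-type cells at low oxygen, whereas 3 rose and 6 fell in starvation, with a median of -1.32 in wild type and -1.01 in knockout. Timp3, a metalloproteinase inhibitor that also blocks VEGF receptor binding, went below background in all 6 starved samples. It was at least 7.37-fold lower in wild type (adjusted p = 3.77e-06) and at least 6.95-fold lower in knockout. Serpinf1, which encodes the factor PEDF, fell by 2.42 and 2.44 in starvation. Col18a1, the collagen from which endostatin is cut, rose by 2.15 and 2.48 in starvation and by 1.30 and 1.60 at low oxygen, and Pf4, a platelet chemokine, rose by 1.96 and 1.82 at low oxygen. Timp3, Serpinf1 and Col18a1 are also made by stromal cells, whose summed marker signal was lower in the same starved groups, though not every marker fell. Col18a1 rose there while that sum was lower. The part of such cells in these values was not tested.

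Of 14 genes for lipoprotein lipase, its partners and PPAR targets tested among 16, 2 rose and 3 fell in wild-type cells at low oxygen, and 4 rose and none fell in starvation. Fabp4, a fatty acid carrier and PPAR target, rose by 1.83 ± 0.13 (adjusted p = 6.37e-07) in starved wild-type cells and by 1.98 in knockout, and at low oxygen it differed by -0.21 in wild type and did not pass in either genotype. Lipa, the lysosomal acid lipase, fell by 1.39 and 1.36 at low oxygen, and Pparg, a lipid-sensing nuclear receptor, by 0.78 and 0.86. Lmf1, needed for lipase maturation, rose by 0.76 and 0.75.

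Of 12 HIF targets, 10 rose and 1 fell in wild-type cells at low oxygen, with a median of 2.86, and the same numbers in knockout cells, with a median of 3.09. Ankrd37 rose by 5.55 and 6.04, Bnip3 by 4.48 and 4.66 and Ero1a by 4.59 and 4.58. In starvation 3 rose and 1 fell in wild type, with a median of 0.18. Of 9 ATF4 targets tested among 10, none rose and 2 fell in starved wild-type cells, with a median of -0.37. Vldlr, a lipoprotein receptor that is also a HIF target, rose by 2.32 and 2.67 at low oxygen.

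**Figure D4:**
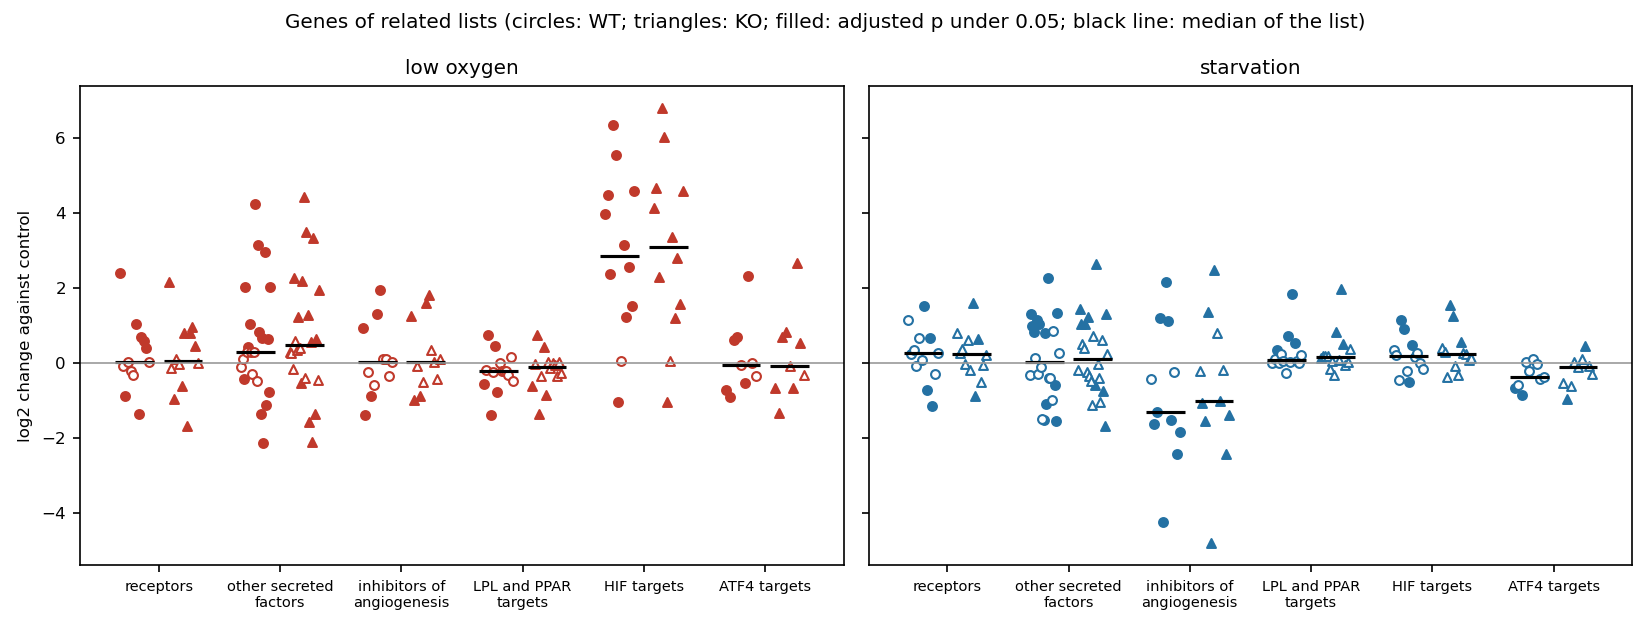
Log2 change against control of every tested gene on 6 lists of related genes, in low oxygen (left) and starvation (right), for wild-type (circles) and knockout cells (triangles). Filled points passed at an adjusted p under 0.05 and the black lines are list medians. HIF targets have medians of 2.86 and 3.09 in low oxygen, and inhibitors of angiogenesis have medians of -1.32 and -1.01 in starvation.

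The genes closest in pattern to each member were found by the root mean square difference of log2 values over the 18 samples, each gene centred on its own mean, among 12769 named genes. The nearest to Vegfa were P4ha2, Fam162a and Slc2a1, at 0.20 to 0.21, while Vegfa itself had an SD of 2.02 over the samples. The nearest to Adm were Fam162a (0.26), Bnip3 (0.28) and Vegfa (0.30). For Pdgfa they were Arhgap22, Zranb3 and Apbb2 (0.20 to 0.23, SD 0.75), and for Pdgfb Slc6a8, Antxr2 and Golm1 (0.19 to 0.21, SD 0.61).

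Vegfb lay nearest to Itgb5, Micall2 and Cep250 (0.17 to 0.18, SD 0.56), and Vegfc to S100a6, Krt80 and Gng2 (0.19 to 0.21, SD 0.49). Angptl2 lay nearest to Inhba, Pdpn and Tspan7, at 0.58 to 0.66 with an SD of 1.62. Epo had no close neighbour: Clic5, Tfap2a and Cebpe stood at 0.91 to 0.94, with an SD of 1.43. For Angptl4 (Midn, Trpt1 and Zfp954, 0.18) and Pgf (Yipf5, Btbd16 and Tex264, 0.12) the distance was large beside the gene's own SD, 0.28 and 0.21. All these distances share the same 18 samples.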

How the data were processed

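The authors deposited 1 scanner file per array. Per the file headers, each spot's intensity had its background subtracted and a spatial trend removed by Agilent Feature Extraction (version 10.7.3.1), arrays were not normalized to each other, and the design used mm9. A value table deposited for the whole series is on a log2 scale, and its columns have nearly equal distributions. Limma, unversioned, is the tool named in the submitters' processing notes. The labels give biotin in 1 field and Cy3 in the labelling protocol, and each array has 1 channel.

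From these, log2 processed signals were centred on the 75th percentile of each array. Non-uniform spots and population outliers, by the scanner software's flags, were dropped, which removed 0.386% to 0.907% of spots. The 2 samples with 2 arrays each were averaged. A probe was tested when well above background in at least 3 of 18 samples with at least 2 values in each group. Accessions matched RefSeq symbols (GRCm38.p6) for 26049 of 39429 probes (66.07%), and the brightest probe stood for each of 20568 genes, 13886 with a symbol. Other genes kept their accession.

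A model of 6 group means over 18 samples was fitted in R 4.3.3 with limma 3.58.1, with 12 residual degrees of freedom, for 11 comparisons, at an adjusted p threshold of 0.05. The fit was tested on simulated data. Precision is limited by the number of arrays. The series design names 3 mice each but ties no sample to a mouse, so samples of different groups may share one, and p-values measure only the spread between these samples. Deviations of same-numbered samples correlated over 0.1 in every pair only for low oxygen against starvation in knockout cells (r 0.174 to 0.192). There the replicate number as a block changed no call of the 10 genes. Single pairs of other comparisons reached 0.308, and differently numbered samples were not compared, so this check cannot exclude pairing elsewhere.

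Alternatives were quantile normalization, normexp background correction (offset 50) on the median spot signals, the authors' value table, other filters, slide or replicate number as a block, single arrays, dimmer probes, fits of only the groups compared, and each sample left out. An analysis without 3 samples set apart in earlier work (wild-type control replicate 1, knockout control replicate 3 and starved wild-type replicate 3) was added after seeing the data. The 10 genes and all lists were chosen with earlier results of these data known. From each list of related genes, at most 4 were named, those with the smallest adjusted p in low oxygen or starvation, wild type first. The 3 nearest genes were named for each member. Of the lists of markers, those of endothelial, mast cell and lymphocyte type are summarised below. One gene that this rule names and 1 marker list are not reported here.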

Additional observations from a re-analysis of the deposited data

How the results depend on the processing

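Over the 10 genes and 11 comparisons, 1880 of 1968 values under alternatives kept their side of the threshold with no called value turned, 71 lost the call, 16 gained one and 1 called value changed sign. Signs also changed in 113 of 1345 values of differences that had not passed, 14 of them with normexp. Where such a difference is called higher or lower above, the word describes these samples only. The called value that changed sign was Epo in low oxygen against starvation in wild type, -0.042 with normexp background correction. Normexp also left 3 of the 10 called in starved knockout cells (6 in the fit of all groups) and 3 in low oxygen against starvation in wild type (8), and fits of only the groups compared left 3 and 5 there. Such fits use fewer samples for the spread, and for normexp the cause was not tested. Leaving out 1 sample gave 6 to 8 called in low oxygen in wild type, 5 to 7 in knockout, 4 to 5 and 4 to 6 in starvation, and 6 to 8 and 4 to 5 in low oxygen against starvation. It gave 0 to 1 for knockout against wild type at low oxygen, the 1 being Epo without knockout low-oxygen replicate 3. Over all genes, normexp called 3943 instead of 8029 in low oxygen in wild type, 4267 instead of 8275 in knockout, 1148 instead of 2601 and 933 instead of 2795 in starvation, and 4057 instead of 7943 and 3784 instead of 7689 in low oxygen against starvation. Leaving out 1 sample took the starvation count in wild type to 1710 at the lowest. With the replicate number as a block, 8 of the 10 were called in low oxygen in wild type instead of 7, Angptl2 being added (0.95, adjusted p = 0.0181), and the block changed no other call of the 10 genes. In the other comparisons the deviations of same-numbered samples correlated at r -0.357 to 0.308, and this check cannot exclude that the numbers pair samples there. Where all 18 samples had to be well above background, Epo and Angptl2 had no value. Epo and Angptl2 are limited by signal near background, the other 8 genes by 3 samples a group.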

Other observations

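The marker lists of other cell types gave these values. Of 8 endothelial genes, 5 were tested, 4 rose in low oxygen in wild type and their summed signal was 1.68 to 2.85 times the 75th percentile in controls, 2.58 to 2.97 at low oxygen and 2.49 to 4.47 in starvation, with Tie1 and Cldn5 below background throughout. The mast cell, basophil and eosinophil sum was 0.504 to 0.593 in controls, 1.12 to 2.55 at low oxygen and 0.455 to 0.645 in starvation. Only 2 of these 6 genes were tested. In wild type at low oxygen 1 rose, Siglecf by 1.79, and 1 fell, and in knockout 1 rose and none fell. Mcpt8 and Fcer1a were below background in all groups. The lymphocyte sum was 0.34 to 0.754 over all groups, with Cd79a and Ncr1 below background.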
